A study of Mus musculus with 18 samples.

Results

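The mitochondrial ribosomal protein genes are the protein-coding genes with the symbol Mrpl or Mrps followed by a number. Matching the gene identifiers of the count files to GENCODE M21 found 78 of them among 54446 gene rows, 49 named for the large subunit and 29 for the small subunit. The choice used names only and no measured value. Nascent RNA was labelled in mouse embryonic stem (mES) cells with 5-ethynyl uridine (EU), a uridine analogue that is built into new transcripts and allows them to be biotinylated and captured on streptavidin beads. WT cells and cells labelled Tet2-KO (genotype Tet2-/-) received 1 mM EU for 10, 20 or 40 min, which gave 6 groups of 3 replicate dishes and 18 libraries. All groups were grown in serum medium with LIF and with CHIR99021 and PD0325901, inhibitors of GSK3 and MEK, and feeder cells were cleared by passage on gelatin before the experiment. Since 1 line of each genotype is named in the methods, p-values measure the spread between dishes of these lines and may be partly technical.

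The mitoribosome translates the few proteins that mitochondrial DNA encodes, which are core subunits of the respiratory chain and of ATP synthase. Its ribosomal RNAs come from mitochondrial DNA, but all its proteins are encoded in the nucleus, made in the cytosol and imported. The small subunit binds the mRNA and decodes it, and the large subunit joins the amino acids and extrudes the product at the inner membrane.

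Gene reads ran from 17931614 to 23069143 per library, and reads on the ERCC spike-in transcripts from 44162 to 512186. The amount of spike-in followed that of total RNA, so a level per ERCC read is a level per amount of total RNA, and fewer labelled cells and less labelled RNA per cell cannot be told apart. A share of gene reads has a fixed total and shows how a gene moved against the other genes. Markers of mES cells had reads for 7 of 8 genes, and Sox2 was at 0, lying within another gene on its strand. Summed over the list, these markers held 2872 to 3053 CPM (counts scaled to the gene reads of the library) in WT and 2093 to 2210 in libraries labelled Tet2-KO. Zfp42 took much of this difference, with group means of 522 to 565 CPM in WT and 105 to 118 in Tet2-KO, followed by Tfcp2l1 with 897 to 1060 and 666 to 775. Klf4 (129 to 163 and 88.7 to 99.3) and Dppa5a (52.1 to 60.4 and 44.0 to 48.4) also had lower group means in Tet2-KO, without overlap. Pou5f1 (77.7 to 105 and 82.1 to 109), Nanog (301 to 324 and 270 to 302) and Esrrb (780 to 889 and 763 to 841) had group means with overlapping ranges. Within each EU time, however, Nanog and Esrrb had lower means in Tet2-KO and Pou5f1 a higher one. The 6 markers of feeder fibroblasts summed to 6.46 to 22.8 in WT and 6.48 to 13.9 in Tet2-KO, the 4 of primitive endoderm to 3.77 to 8.09 and 3.07 to 7.38, and the 4 of trophectoderm to 5.73 to 9.76 and 4.69 to 6.69. The part of these marker levels in the results was not tested. Reads on Tet2 were kept in the libraries labelled Tet2-KO, at 530 to 643 CPM against 589 to 741 in WT, which does not bear out the label. Reads summed over a gene cannot reveal the loss of a single exon, and the genotypes named here are those of the labels only.

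Of the 78 genes, 74 passed the filter on low counts, 46 of the large and 28 of the small subunit. The other 4, Mrpl2, Mrpl33, Mrpl53 and Mrps6, had no read in any of the 18 libraries. Each of these lies almost wholly within another annotated gene on the same strand, Mrpl2 within Gm26904, Mrpl33 within Gm43809, Mrpl53 within Gm42688 and Mrps6 within Gm16310, Gm49711 and Slc5a3. Across the genome, 473 of 479 protein-coding genes that lie wholly within same-strand genes had no read (98.7%), against 1839 of 21439 others (8.58%). Where the covering gene was on the opposite strand, 91 of 823 had none (11.1%). The 0 counts of the 4 genes therefore carry no information on their transcription.

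The members shared several features that their names did not fix. Their genes were short, with a median span of 7.90 kb against 26.7 kb for the 15158 protein-coding genes tested, and had a median of 5 against 10 blocks of exons. Per kb of gene span that no other gene on the strand covers, their median level in WT was 0.39 reads per 1000 ERCC reads, against 0.107 for protein-coding genes. Exons made up a median of 34.0% of the members' span against 16.4%, and this level was not adjusted for it. Their median reads per library were 386 against 310. They lay on 17 chromosomes, 28 had an exon that overlapped an exon on the opposite strand, and 13 were covered in part on their own strand. Close neighbours were frequent: 33 of the 78 members (42.3%) started within 1000 bases of a divergent protein-coding gene, against 14.4% of protein-coding genes tested.

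Promoter sequence was at hand for 69 of the 78 members, from RefSeq on GRCm38.p6, the patch release of mm10. Windows of 250 bases before to 50 after the start were searched on both strands for the letters of 3 motifs. The last 3 letters of the GABPA motif are the first 3 of the YY1 motif, so these may share bases. The NRF1 motif (GCGCA, any base, GCGC) was in 13 members (18.8%) and in 7.17% of the 17492 protein-coding genes of the table. NRF1 is a factor long tied to nuclear genes for mitochondrial proteins. The GABPA (NRF2) motif CCGGAAG was in 26 members (37.7%) against 12.9%, and the YY1 motif AAGATGGC in 12 (17.4%) against 3.57%. At least 1 of them was in 43 members (62.3%) against 21%, with a median GC content of 58.7% and 56.3%. The protein-coding genes compared here were neither limited to those tested nor matched for level or divergent starts. A match is only a match of letters. The tested members with any motif had a median log2 fold change of -0.06 (n = 41, Tet2-KO over WT, share of gene reads), and those without had -0.12 (n = 24). For the GABPA motif alone the order was the other way, with -0.08 (n = 24) and -0.06 (n = 41).

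The sequences below are printed because the genes are described in the comparisons, or, for Mrpl45, because it holds the NRF1 motif at 2 places. Each reads 5′ to 3′ towards the gene and ends at the base before the RefSeq start, none holds an annotated exon, and capitals mark a motif, on either strand. Mrps36 (chr13:100744660-100744909, minus strand) held none of the 3 motifs. Mrps27 is shown for the stretch between its start and that of the divergent gene Ptcd2 (chr13:99344706-99344785, plus strand), with the GABPA motif. Mrps22 (chr9:98601680-98601929, minus strand) held the GABPA motif 11 bases before its start. In Mrpl45 (chr11:97315466-97315715, plus strand) the NRF1 motif began 120 and 38 bases before the start. The 250 bases before Mrps30 lie within an exon of the divergent gene B430218F22Rik and are not shown.
Mrps36: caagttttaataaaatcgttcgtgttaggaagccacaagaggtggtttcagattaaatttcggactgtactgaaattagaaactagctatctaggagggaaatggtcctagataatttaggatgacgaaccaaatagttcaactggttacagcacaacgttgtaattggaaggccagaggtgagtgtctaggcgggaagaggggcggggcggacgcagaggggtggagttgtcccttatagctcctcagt
Mrps27: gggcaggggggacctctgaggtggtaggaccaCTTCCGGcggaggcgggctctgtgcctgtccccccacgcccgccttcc
Mrps22: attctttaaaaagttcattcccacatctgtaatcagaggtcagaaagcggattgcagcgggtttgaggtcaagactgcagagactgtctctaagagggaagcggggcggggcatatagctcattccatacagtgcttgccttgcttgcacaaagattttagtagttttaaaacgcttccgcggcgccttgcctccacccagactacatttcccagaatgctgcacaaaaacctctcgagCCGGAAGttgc
Mrpl45: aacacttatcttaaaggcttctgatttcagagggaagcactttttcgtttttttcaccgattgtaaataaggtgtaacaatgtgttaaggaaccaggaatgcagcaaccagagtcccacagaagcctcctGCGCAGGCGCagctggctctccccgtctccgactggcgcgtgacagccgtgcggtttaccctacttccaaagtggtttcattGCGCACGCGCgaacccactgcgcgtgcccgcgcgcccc

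Levels differed widely among the members. Per kb of uncovered span, the highest levels in WT were those of Mrpl24 at 1.69 reads per 1000 ERCC reads, Mrpl52 at 1.49, Mrpl18 at 1.35 and Mrpl15 at 1.22, and the lowest of all was 0.0611. Nascent reads also cover introns, and per kb of exon the order changed. Mrps28 stood at 36.5, Mrps27 at 11.5 and Mrpl18 at 4.83 on that scale, while Mrpl23 at 0.188, Mrps17 at 0.224 and Mrps34 at 0.226 were lowest. Mrps28 and Mrps27 have long introns, and per kb of uncovered span they stood at 0.235 and 0.339, where Mrpl23 had 0.114, Mrps17 had 0.206 and Mrps34 had 0.337. A few long genes also held much of each subunit's reads. Mrps28 took 13.6% to 20.7% of the small-subunit reads of a library, Mrps9 took 11.1% to 14.8% and Mrps27 took 11% to 15.0%, and the top 5 genes together held 53.3% to 58.6%. In the large subunit the top 5 held 32.3% to 39.4%, led by Mrpl1 at 8.74% to 10.7% and Mrpl15 at 5.89% to 12.2%.

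Summed per ERCC read, the members were higher in libraries labelled Tet2-KO at each EU time. All members held 0.12 reads per ERCC read in WT at 10 min, 0.360 at 20 min and 0.598 at 40 min, and 0.215, 0.475 and 0.898 in Tet2-KO. The ratio of means was 1.79, 1.32 and 1.5. The slope on EU time, taken as a rate of labelling, was 0.0154 per min in WT (SE 0.00123, n = 9 libraries) and 0.0225 per min in Tet2-KO (SE 0.00117), a ratio of 1.47. For the large subunit the ratio was 1.54 and for the small subunit 1.4. It rested on the choice of times, with 1.08 for all members from 10 and 20 min only and 1.78 from 20 and 40 min only. Taken gene by gene, the slope was larger in Tet2-KO for 72 of 74 members (97.3%, against 89.3% of protein-coding genes tested), with a median log2 ratio of 0.61 against 0.62. Mrps30 with -0.72 and Mrpl54 with -0.16 were the 2 below 0, and Mrps34 with 1.16 and Mrpl55 with 1.15 had the largest ratios.

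As a share of gene reads the order turned, and the members were lower in Tet2-KO. All members together took 0.257%, 0.245% and 0.242% of gene reads in WT at 10, 20 and 40 min and 0.225%, 0.231% and 0.226% in Tet2-KO. The small subunit took 0.118% ± 0.00151 (SD, n = 3), 0.118% ± 0.00122 and 0.121% ± 0.00190 in WT. In Tet2-KO it took 0.102% ± 0.00197, 0.106% ± 0.00154 and 0.108% ± 0.00129, and at each time the libraries of the genotypes did not overlap. The large subunit took 0.139% ± 0.00115, 0.126% ± 0.000719 and 0.122% ± 0.00111 in WT, and 0.124% ± 0.00175, 0.124% ± 0.00246 and 0.119% ± 0.000718 in Tet2-KO. Its libraries overlapped at 20 min and not at 10 or 40 min. The ratio of Tet2-KO to WT was 0.862, 0.899 and 0.893 for the small subunit and 0.890, 0.984 and 0.976 for the large subunit. The median log2 fold change of all genes tested, which is no sum, was also below 0, at -0.07, -0.03 and -0.02. Part of the small-subunit difference lay in Mrps27 and Mrps30, as without them its ratio was 0.932, 0.964 and 0.948. The summed reads of the large subunit over those of the small subunit were 1.18 ± 0.0211, 1.07 ± 0.0158 and 1.01 ± 0.0250 in WT and 1.21 ± 0.0410, 1.17 ± 0.0334 and 1.1 ± 0.0118 in Tet2-KO. This ratio was smaller at 40 than at 10 min in both genotypes, and the libraries of the genotypes overlapped at 10 min and not at 20 or 40 min. With subunits taken from known structures, in which Mrps30 and Mrps18a sit in the large subunit and Mrps36 in neither, it was 1.41, 1.26 and 1.19 in WT and 1.35, 1.29 and 1.21 in Tet2-KO. Taken this way the order of the means turned at 10 min, and the libraries of the genotypes overlapped at every time.

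**Figure D1:**
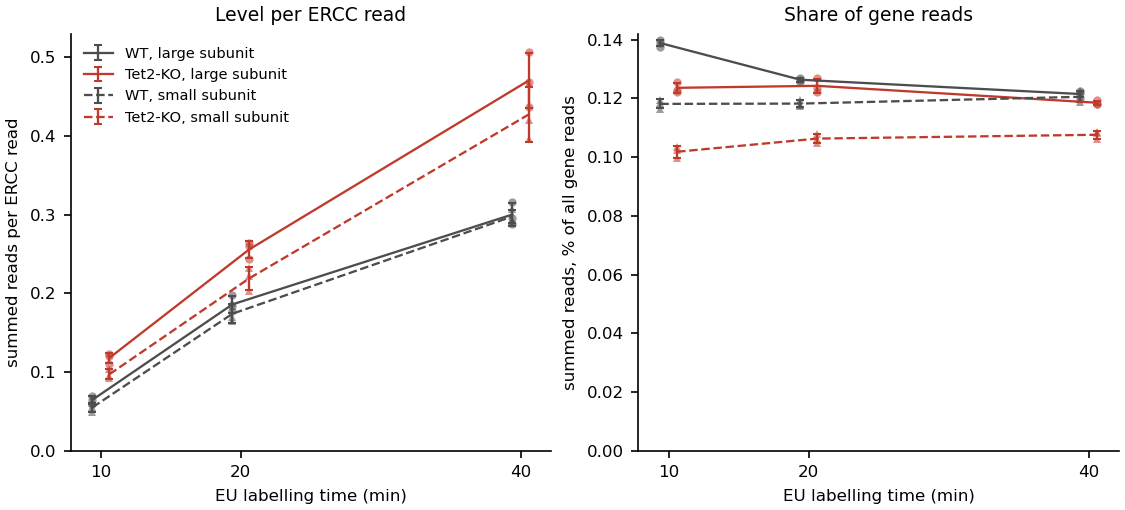
Summed reads of the large-subunit and small-subunit genes per library, by genotype and EU time, per ERCC read and as percent of gene reads. Points are libraries, lines are means and bars are SD (n = 3); per ERCC read the Tet2-KO libraries lie above WT, and as a share the small-subunit sum of Tet2-KO lies below WT at each time.

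Gene by gene, per ERCC read, 71 of the 74 members were higher and 1 was lower in Tet2-KO on average over the 3 EU times (quasi-likelihood test of edgeR, Benjamini-Hochberg adjusted p under 0.05). Of all 19910 genes tested, 80.5% were higher and 4.15% lower, so the members moved with the bulk of genes. The median log2 fold change was 0.66 for the members and 0.70 for all genes. At 10 min 71 members were higher and 1 lower (79% and 2.1% of all genes), at 20 min 58 and 1 (53.7% and 4.86%), and at 40 min 69 and 1 (68.2% and 2.84%). For 53 members every Tet2-KO library lay above every WT library at each time (51.6% of all genes), and for 1 below (1.56%). The difference was smaller at 40 than at 10 min for 12 members (19.3% of all genes) and larger for 0 (0.552%). These 12 were Mrpl17, Mrpl30, Mrpl34, Mrpl37, Mrpl38, Mrpl42, Mrps5, Mrps7, Mrps15, Mrps22, Mrps25 and Mrps28. That count was the least stable, with 4 members once Tet2-KO 10 min replicate 3 was left out and 20 once WT 10 min replicate 2 was. The member that was lower was Mrps30, and Mrps36 and Mrpl54 passed in neither direction.

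As a share of gene reads, 27 of the 74 members were lower and 8 higher in Tet2-KO on average over the EU times, against 32% and 24.6% of all genes. With TMM normalization the split was 22 lower and 11 higher. The median was -0.07 for the members and -0.04 for all genes. Of the large subunit 18 were lower and 3 higher, and of the small subunit 9 and 5. At 10 min 29 members were lower and 5 higher (27.1% and 17.9% of all genes), which became 24 and 8 with TMM. At 20 min 12 were lower and 6 higher (20.7% and 17.6%), or 9 and 7 with TMM, and at 40 min 16 and 3 (19.6% and 18.9%). The log2 fold change was below 0 at all 3 times for 30 members (40.5%, against 35.5% of all genes) and above 0 for 11 (14.9%, against 27.3%). Separation of the libraries of both genotypes at every time was found for 8 members in the lower direction (13.9% of all genes) and 2 in the higher direction (11.8%). The 8 were Mrps30, Mrps36, Mrpl54, Mrpl19, Mrps27, Mrpl47, Mrps10 and Mrps35, and the 2 were Mrpl37 and Mrpl55. On chromosome 13 4 of 5 members were lower (34.4% of 901 genes tested there) and on chromosome 6 4 of 6 (48.9% of 1010). No member of either was higher, and without these chromosomes 19 of 63 were lower and 8 higher. The lower counts at 20 and 40 min then fell to 5 and 9.

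**Figure D2:**
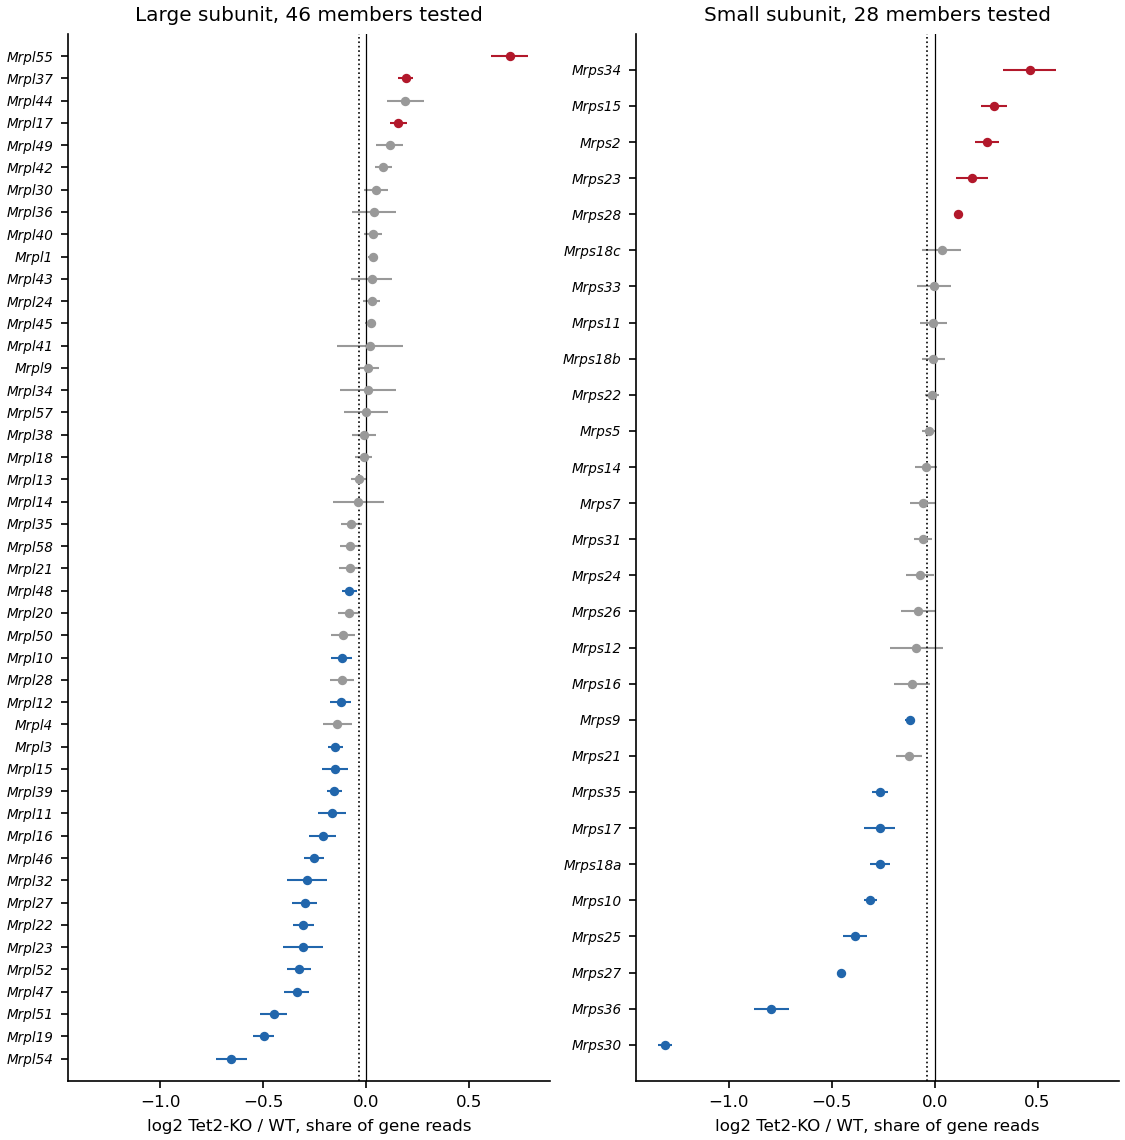
Log2 fold change, Tet2-KO over WT averaged over the EU times as share of gene reads, for each tested member, ordered within its subunit. Bars are SE, blue and red mark members lower and higher at adjusted p under 0.05, grey marks the others and the dotted line is the median of all genes tested; Mrps30 with -1.31 and Mrpl55 with 0.70 lie at the ends.

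Mrps30, named for the small subunit but found in the large subunit in structures, had the largest fall (chr13:118378381-118387252, minus strand). Its CPM in WT was 76.1, 74.4 and 70.9 at 10 min, 63.8, 69.1 and 65.9 at 20 min and 73.6, 72.7 and 71.2 at 40 min. In Tet2-KO it had 28.3, 28.2 and 27.3 at 10 min, 29.3, 30.5 and 27.8 at 20 min and 30.8, 27.6 and 26.9 at 40 min. Every Tet2-KO library was thus far below every WT library, with no visible trend over EU time in either genotype. The log2 fold change was -1.31 (SE 0.03, adjusted p = 1.61e-26 by edgeR), a fold of 0.403, and it was -1.40, -1.18 and -1.35 at 10, 20 and 40 min. Per 1000 ERCC reads its level in WT was 3.54, 3.78 and 3.04 at 10 min, 9.22, 10.9 and 9.24 at 20 min and 17.9, 18.8 and 17 at 40 min. In Tet2-KO it was 2.71, 2.53 and 2.75 at 10 min, 5.61, 6.57 and 5.87 at 20 min and 13.2, 10.1 and 10.7 at 40 min. On this scale the genotypes again did not overlap, although the Tet2-KO libraries came close to WT at 10 min. The log2 fold change per ERCC read was -0.58 (SE 0.06, adjusted p = 1.73e-19), a fold of 0.670. All 4 other tested genes within 1 Mb were lower as a share too, with a median of -1.49. They include its divergent partner B430218F22Rik, whose start overlaps it by 622 bases, at -2.16 (adjusted p = 1.67e-07 by edgeR).

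Mrps36 (chr13:100735955-100744659, minus strand), known also as a part of the 2-oxoglutarate dehydrogenase complex, came next. Its CPM in WT was 11.1, 11.8 and 15.1 at 10 min, 9.52, 8.77 and 9.08 at 20 min and 6.46, 7.19 and 7.38 at 40 min. The Tet2-KO libraries had 6.76, 6.99 and 5.19 at 10 min, 5.93, 4.66 and 6.01 at 20 min and 4.69, 4.7 and 3.9 at 40 min. Within each EU time all Tet2-KO libraries were below WT, and in both genotypes the level was lower at 40 than at 10 min. Tet2-KO over WT, this was a log2 fold change of -0.79 (SE 0.09, adjusted p = 1.1e-09 by the same edgeR test), whereas per ERCC read the value was -0.06 (adjusted p = 0.564). Named pseudogenes of Mrps36 exist, so reads that match several copies may be missing from its count. Of the 21 genes tested within 1 Mb, 15 were lower and 1 higher.

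Mrps27 (chr13:99344786-99415562, plus strand), a pentatricopeptide repeat protein, lies on the same chromosome and was among the members with most reads, although per kb of uncovered span its level was below the members' median. Its CPM in WT was 178, 169 and 174 at 10 min, 169, 165 and 172 at 20 min and 159, 157 and 158 at 40 min. Tet2-KO dishes gave 124, 115 and 122 at 10 min, 117, 124 and 123 at 20 min and 122, 125 and 123 at 40 min. The groups were well apart at each time, and WT was lowest at 40 min while Tet2-KO stayed near one level. On the log2 scale the fold change was -0.46 (SE 0.02, adjusted p = 3.29e-20, same test), and it was -0.53 at 10 min and -0.36 at 40 min. Ptcd2, which starts 81 bases away in the other direction, fell by 0.45 on the log2 scale. Within 1 Mb 12 of 21 genes were lower and 1 higher, with a median of -0.52.

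In the large subunit Mrpl54 (chr10:81264713-81266934, minus strand) had the largest fall. Its CPM in WT was 16.2, 14.2 and 10.6 at 10 min, 13, 12.6 and 13.4 at 20 min and 13.8, 12.4 and 13 at 40 min. In Tet2-KO the values were 9.3, 8.77 and 8.45 at 10 min, 8.89, 9.11 and 7.76 at 20 min and 8.49, 8.11 and 6.8 at 40 min. All Tet2-KO libraries lay below WT, with WT replicate 3 at 10 min the nearest. The log2 fold change was -0.65 (SE 0.07, adjusted p = 2.77e-09), and per ERCC read 0.08 (SE 0.09, adjusted p = 0.402). Its partner Apba3, whose start lies 26 bases away, had -0.75, but the median of the genes within 1 Mb was only -0.15.

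Mrpl19 (chr6:81957851-81965958, minus strand) had a CPM in WT of 21.2, 20.9 and 22.7 at 10 min, 21.7, 19.5 and 20.5 at 20 min and 25, 24.2 and 22.6 at 40 min. Its Tet2-KO values were 13.7, 16.8 and 15.6 at 10 min, 14.3, 14.1 and 15 at 20 min and 15.1, 18.7 and 17.1 at 40 min. The groups did not overlap at any time, and the log2 fold change was -0.50 (SE 0.05, adjusted p = 7.11e-10). Mrpl47 (chr3:32725397-32737605, minus strand) had a CPM in WT of 24.1, 20.2 and 22.3 at 10 min, 20.1, 16.9 and 15.9 at 20 min and 18.9, 15.2 and 15.9 at 40 min. Its values in Tet2-KO were 16.4, 17 and 15.5 at 10 min, 15.4, 15.6 and 14.6 at 20 min and 14.2, 12.9 and 12 at 40 min. Here the groups came close, the log2 fold change was -0.34 (SE 0.06, adjusted p = 1.08e-05), and levels were lower at 40 than at 10 min in both genotypes. Mrps10 and Mrps35, the other members whose libraries separated, had -0.31 and -0.26.

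Mrpl55 (chr11:59202486-59206134, plus strand), a protein of the large subunit with no bacterial counterpart, had the largest rise. Its CPM in WT was 4.04, 5.44 and 6.02 at 10 min, 4.78, 5.07 and 5.96 at 20 min and 6.29, 5.14 and 4.47 at 40 min. In Tet2-KO it had 9.83, 8.93 and 9.13 at 10 min, 7.83, 9.89 and 7.14 at 20 min and 7.86, 8.16 and 8.03 at 40 min. All Tet2-KO libraries were above WT at the same time, at low counts of 90 to 221 reads per library. This was a log2 fold change of 0.70 (SE 0.09, adjusted p = 4.83e-08), a fold of 1.62, and per ERCC read it was 1.43 (SE 0.10). The genes within 1 Mb did not share it, with a median of -0.09.

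Mrpl37 (chr4:107055874-107066868, minus strand) was the other member whose Tet2-KO libraries lay above WT at every time. Its CPM in WT was 29.4, 29.2 and 25 at 10 min, 34.7, 34.7 and 35.4 at 20 min and 37.8, 39.2 and 39.4 at 40 min. The Tet2-KO libraries had 32.5, 33.4 and 34.2 at 10 min, 37.5, 39.2 and 38.2 at 20 min and 44.5, 45 and 42.8 at 40 min. Levels were higher at 40 than at 10 min in both genotypes, and the log2 fold change between genotypes was 0.19 (SE 0.04, adjusted p = 2.66e-05). Mrps34 (chr17:24895116-24897502, plus strand), linked to mitochondrial disease in people, had 0.46 (SE 0.13, adjusted p = 0.0024), from 1.92 to 3.96 CPM in WT and 2.67 to 5.04 in Tet2-KO. Its libraries overlapped at 10 and 20 min, and it shares part of its span with Nme3.

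**Figure D3:**
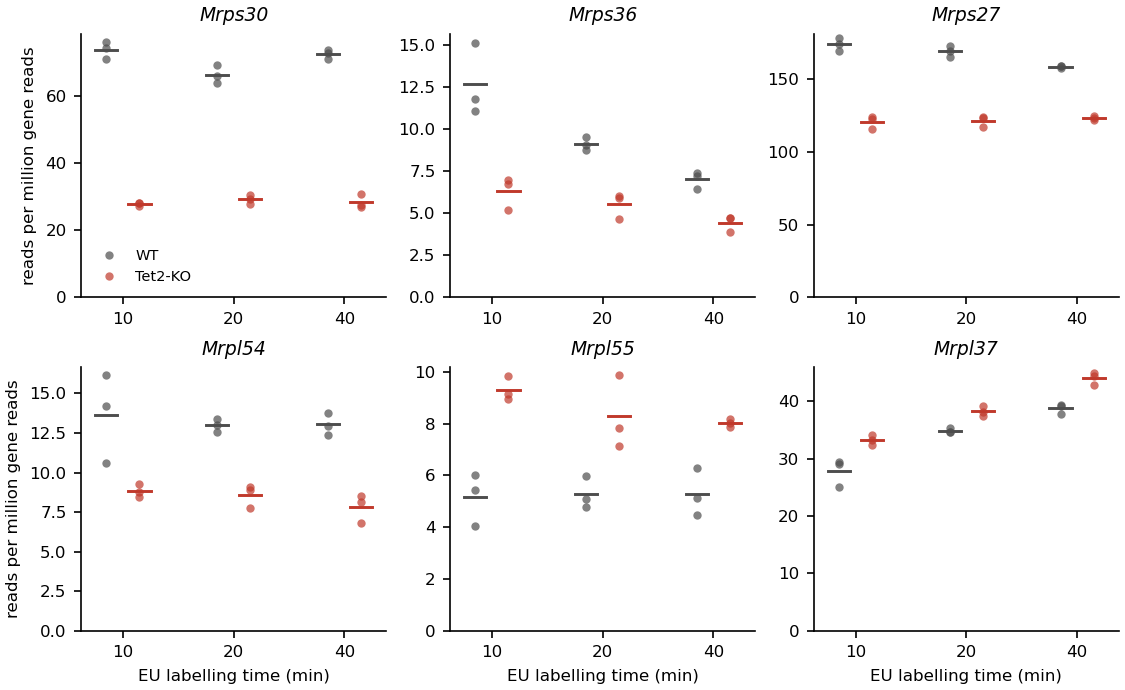
CPM in each library for Mrps30, Mrps36, Mrps27, Mrpl54, Mrpl55 and Mrpl37, by genotype and EU time, with lines at group means (n = 3). In the panels of Mrps30, Mrps36, Mrps27 and Mrpl54 the Tet2-KO points lie below the WT points of the same time, and in those of Mrpl55 and Mrpl37 above them.

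Among members picked for what they do, Mrpl12, which binds the mitochondrial RNA polymerase, had -0.12 (SE 0.05, adjusted p = 0.0393), a call that was lost with TMM. Mrpl3, next to the peptidyl transferase centre, had -0.15 (SE 0.04, adjusted p = 0.000913). Mrpl58, a peptidyl-tRNA hydrolase that rescues stalled ribosomes, had -0.08 (SE 0.05, adjusted p = 0.211), and Mrpl44, which resembles RNase III, had 0.19 (SE 0.09, adjusted p = 0.0708).

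In the small subunit, Mrps12, which lies at the decoding site, had -0.09 (SE 0.13, adjusted p = 0.582), and Mrps16 had -0.11 (SE 0.09, adjusted p = 0.283). The 3 homologues of bacterial S18 differed in their calls. Mrps18a, which sits in the large subunit, was lower at -0.27 (SE 0.05, adjusted p = 1.71e-05), while Mrps18b had -0.01 (SE 0.06, adjusted p = 0.92) and Mrps18c had 0.03 (SE 0.09, adjusted p = 0.779). The differences between these 3 were not tested. Mrps28 rose by 0.11 on the log2 scale (SE 0.02, adjusted p = 1.62e-07), and its share of the small-subunit reads was on average 15.6% in WT and 19% in Tet2-KO. The small-subunit sum, against which this share is taken, was itself a lower share of gene reads in Tet2-KO. Of the 9 genes tested within 1 Mb of Mrps28, 6 were higher and 0 lower, with a median of 0.47.

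The genes around the members moved in ways that varied by locus. On chromosome 6, whose 1010 tested genes had a median of -0.25 and were lower in 48.9%, Mrpl51 had -0.45 and the genes within 1 Mb had a median of -0.47, 37 of 54 lower. Mrps25 on the same chromosome had -0.39, with a median of -0.58 around it. Mrps35, also there, had -0.26 where its neighbours had a median of 0.23. Across the 74 tested members, Pearson's r between the member and the median of its neighbours was 0.61 and Spearman's rho 0.30, as a description, since members of a locus share neighbours. Without Mrps30 r was 0.38, and over the 63 members on other chromosomes than 6 and 13 it was 0.10.

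**Figure D4:**
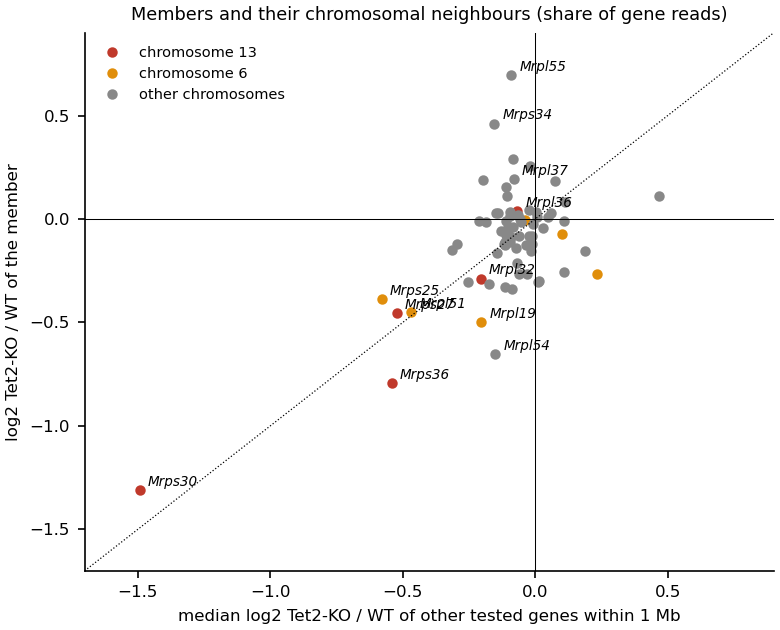
Log2 fold change of each tested member (vertical axis) against the median log2 fold change of the other tested genes within 1 Mb (horizontal axis), Tet2-KO over WT as share of gene reads. Members on chromosome 13 are red and on chromosome 6 orange, the dotted line marks equal values, and Mrps30 at -1.31 against -1.49 stands apart from the rest.

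Divergent partners were also compared. In 29 of 32 pairs of a member and a divergent protein-coding gene both were tested, and 12 had the same sign (41.4%), against 648 of 1022 such pairs in the genome (63.4%). Pearson's r over the 29 pairs was 0.73 and Spearman's rho 0.08, as a description that includes the pair of Mrps30 at -1.31 and -2.16. Mrpl51 and Ncapd2, whose starts are 100 bases apart, had -0.45 and -0.43. Mrpl44 had 0.19 beside -0.73 for Wdfy1, and Mrpl36 had 0.04 beside -0.49 for Ndufs6. Mrpl27 and Eme1, on overlapping starts, were called in opposite directions, at -0.30 and 0.15. Mrpl46 and Mrps11, which are partners of each other, had -0.25 and -0.01.

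Over EU time every tested member gained reads per ERCC read, with 74 of 74 higher at 40 than at 10 min in WT (96.7% of all genes) and in Tet2-KO (94.7%). As a share of gene reads the members parted. In WT 21 were lower and 9 higher at 40 than at 10 min, against 29.5% and 16.1% of all genes, with a median of -0.11 against -0.14. With TMM the split was 15 and 16, a scaling that moved the median of all genes in WT from -0.14 to -0.03. In Tet2-KO 9 were lower and 9 higher (20% and 16.5%), or 7 and 11 with TMM. WT and Tet2-KO libraries are separate, and the 2 sets of fold changes had Pearson's r of 0.71 and Spearman's rho of 0.66 over the 74 members, with the same sign in 51 (68.9%). For the protein-coding genes tested r was 0.54 and rho 0.64, with the same sign in 76.4%. Called in both were 9 lower members (12.2%, against 15.2% of all genes) and 5 higher ones (6.76%, against 10.9%).

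The 9 were Mrpl13, Mrpl15, Mrpl39, Mrpl46, Mrpl47, Mrps14, Mrps18a, Mrps21 and Mrps36, and the 5 were Mrpl10, Mrpl37, Mrps7, Mrps9 and Mrps28. Mrpl15 fell most, from 139, 132 and 169 CPM at 10 min in WT to 86.3, 79.5 and 70.8 at 40 min, a log2 fold change of -0.89 (adjusted p = 3.7e-08). In Tet2-KO it went from 143, 95.8 and 101 to 75.9, 76.8 and 79.1, with -0.56 (adjusted p = 0.00016). Its 10 and 40 min libraries did not overlap in either genotype, but its dishes at 10 min spread widely. Mrps36 had -0.85 in WT (adjusted p = 5.2e-06) and -0.51 in Tet2-KO (adjusted p = 0.011), Mrps18a -0.64 and -0.29, and Mrpl39 -0.62 and -0.42. In the other direction Mrps7 had 0.50 and 0.35, Mrpl37 0.48 and 0.41, and Mrps28 0.30 and 0.26. Mrpl36, a small protein of the large subunit, had 0.49 in WT (adjusted p = 0.027) and 0.24 in Tet2-KO (adjusted p = 0.34), and its call in WT was lost without the filter on low counts.

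**Figure D5:**
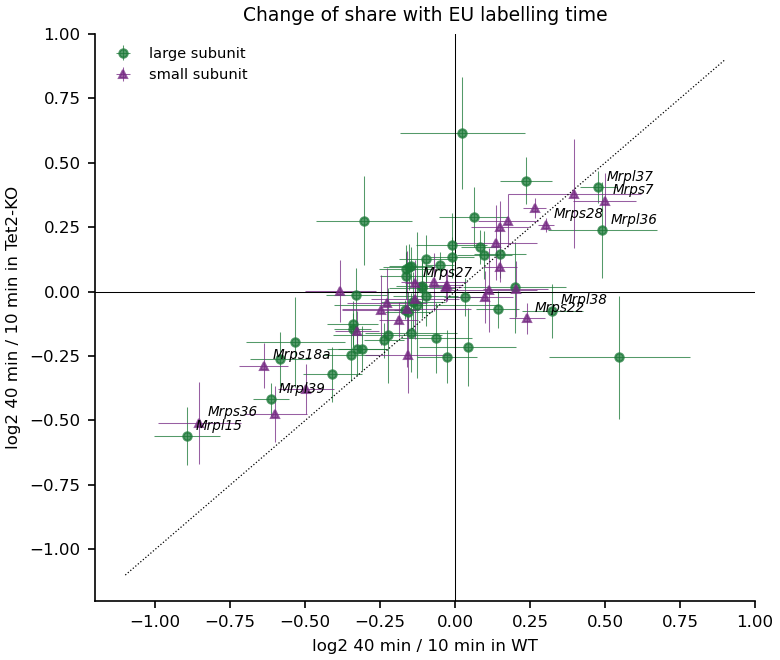
Log2 fold change from 10 to 40 min of EU as share of gene reads for each tested member, WT on the horizontal axis and Tet2-KO on the vertical axis. Bars are SE and the dotted line marks equal values; Mrpl15 at -0.89 and -0.56 and Mrps36 at -0.85 and -0.51 lie at the low end.

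A change of the genotype difference from 10 to 40 min, as a share of gene reads, was called for 2 members, 1 in each direction (5.89% of all genes larger, 3.36% smaller). Other settings moved these counts, to 3 larger and 2 smaller without the filter on low counts. DESeq2 gave 2 and 1, and TMM gave 0 and 2. Mrps22 (chr9:98588730-98601660, minus strand), in which recessive mutations cause mitochondrial disease, had a CPM in WT of 41.1, 42.3 and 38.5 at 10 min, 41.8, 40.0 and 41.1 at 20 min and 46.8, 47.6 and 49.5 at 40 min. Tet2-KO dishes gave 39.5, 45 and 43 at 10 min, 43.5, 49.6 and 46 at 20 min and 39.8, 39.4 and 39.2 at 40 min. At 10 min the groups overlapped, at 20 min Tet2-KO lay above WT, and at 40 min it lay below, where WT stood at its highest. The log2 fold change was 0.06, 0.18 and -0.28 at the 3 times, and its change from 10 to 40 min was -0.34 (SE 0.09, adjusted p = 0.0079 by edgeR). For Mrps27 the change was 0.17 (SE 0.05, adjusted p = 0.019), a smaller deficit at 40 min, and the call was lost with TMM and without Tet2-KO 10 min replicate 2 or Tet2-KO 40 min replicate 2. Mrpl38 with -0.40 (adjusted p = 0.085) and Mrps18a with 0.35 (adjusted p = 0.059) were not called in the main fit.

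The rest of the mitochondrial translation apparatus was described by a list of 63 genes, all tested. Per ERCC read 61 were higher in Tet2-KO and 0 lower, where 80.5% and 4.15% of all genes were. As a share of gene reads 22 were lower (34.9%, near the 32% of all genes) and 10 higher (15.9%, against 24.6%), with a median of -0.06. Of the 17 mitochondrial aminoacyl-tRNA synthetases, which charge tRNAs, 6 were lower and 2 higher, with Vars2 at -0.82 (adjusted p = 7.36e-13), Lars2 at -0.49 and Cars2 at 0.35. Of the 16 translation factors 6 were lower and 1 higher, and Gfm2, which helps to recycle ribosomes, had -0.42. Of the 25 assembly and rRNA modification factors 9 were lower and 4 higher, and Rbfa, which matures the small subunit, had 0.35. The list also holds 5 mitoribosomal proteins with other names. Dap3 had 0.10, Ptcd3 0.07 and Gadd45gip1 0.31, all called higher, Chchd1 was lower at -0.33 and Aurkaip1 had -0.09 (adjusted p = 0.144).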

How the data were processed

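Nascent RNA of 18 libraries in 6 groups (WT or Tet2-KO, 10, 20 or 40 min of EU, 3 dishes each) was analysed. The authors deposited raw read counts per gene, without normalization, made with Trimmomatic 0.39, HISAT2 2.2.1 and HTSeq 0.12.4 on mm10, per the submitters' processing notes, with GENCODE M19 as annotation. The settings of HTSeq are not given in the sources used here. GENCODE M21 gave names and positions. Summary lines that name no gene stayed out: reads on no feature were 13.2% to 16.9%, ambiguous reads 2.32% to 2.50% and reads that were not unique 5.24% to 5.99% of a library. Reads carry no molecular identifiers here, so repeated copies of the same molecule could not be told apart in the counts.

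edgeR 4.0.16 (R 4.3.3, limma 3.58.1) fitted a group per genotype and EU time to the 19910 genes kept by filterByExpr (minimum count 10). Library sizes were ERCC read totals for levels per ERCC read, or gene read totals for shares. The quasi-likelihood test was used with Benjamini-Hochberg adjustment over all genes at 0.05. On simulated counts with the same spread for all genes, only its comparison of shares averaged over EU times was tried. SE is the absolute log2 fold change over the square root of F. Slopes on EU time used least squares with an intercept. Alternatives were DESeq2 1.42.0, other scalings and filters, a replicate block, each EU time alone and each library left out. Leaving out members on chromosomes 6 and 13, or Mrps27 and Mrps30, was chosen after seeing the data.

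Members named were those of set roles, the 3 highest and 3 lowest per subunit among called members with no overlap between genotypes, the 2 highest and 2 lowest per subunit over EU time in WT, the 3 highest and lowest per kb of exon, those not tested, and those with the smallest p of the interaction. Others were named after their values were seen. The members and gene lists were chosen with earlier results of these data known. Replicate numbers did not pair the dishes.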

Additional observations from a re-analysis of the deposited data

Results flagged for a closer look

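For Mrps22 the difference between Tet2-KO and WT, as a share of gene reads, changed by -0.34 (log2) from 10 to 40 min of EU, so the genotype effect differed between EU times (interaction term in edgeR, adjusted p = 0.0079), and over the alternatives the change ran from -0.41 to -0.30. For Mrps27 the same change was 0.17 (adjusted p = 0.019), with a range of 0.10 to 0.19 and of adjusted p from 0.011 to 0.174. Per ERCC read, 12 members had a smaller difference at 40 than at 10 min in that test, beside 19.3% of all genes.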

How the results depend on the processing

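Members named by role, genotype, EU time or interaction were followed under the alternatives, each as a share in the comparison of its rule. None of their called fold changes changed direction, nor did that of Mrps30 per ERCC read or any summed share or slope ratio. Mrps12, Mrps18b, Mrps18c and Mrps22, not called on average over EU times, changed sign in some alternatives. Fold changes of other members named in the text were not followed in this way. The alternatives, those without 1 library apart, gave 175 values for 29 results, which were counts of called members and summed share or slope ratios. Of these values, 142 stayed within the limits set for a count or a ratio and were rated the same as the main value. The cause of the other changes was not tested. With TMM the members' median share change at 20 min went from -0.03 to 0.01, the split from 10 to 40 min in WT went from 9 higher and 21 lower to 16 and 15, and with subunits by structure the ratio of large to small at 10 min was lower, not higher, in Tet2-KO (1.35 against 1.41). The 12 members with a smaller difference per ERCC read at 40 min became 7 with DESeq2's size factors on the ERCC transcripts and 4 to 20 without 1 library (20 without WT 10 min replicate 2, 6 without WT 10 min replicate 3 or WT 40 min replicate 2, 4, 5 and 7 without Tet2-KO 10 min replicate 3, 40 min replicate 2 and 40 min replicate 3). With TMM or DESeq2's size factors, members with a higher share in Tet2-KO at 10 min were 8 in place of 5, and those higher at 40 than at 10 min in WT 16 in place of 9. Fitting each EU time alone gave 7 higher at 40 min in place of 3. Without chromosomes 6 and 13 the lower counts were 5 at 20 min and 9 at 40 min. Without 1 library, members higher in share at 20 min were 3 to 6 (3 without Tet2-KO 20 min replicate 2) and those higher at 40 than at 10 min in Tet2-KO 5 to 10 (5 without 40 min replicate 2). Lower shares averaged over EU times were 22 to 28.

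The summed share of all members, Tet2-KO over WT, was 0.915, 0.987 and 0.957 without members that overlap another gene or have a pseudogene and 0.907, 0.975 and 0.963 without Mrps27 and Mrps30. With subunits by structure it was 0.861, 0.955 and 0.942 for the large and 0.905, 0.930 and 0.927 for the small subunit. Without overlapping members it was 0.922 for the large subunit at 10 min and 0.904, 0.982 and 0.936 for the small subunit, whose values without Mrps27 and Mrps30 were 0.932, 0.964 and 0.948. The slope ratio from 10 and 20 min only was 1.08, 1.14 and 1.03 for all, large and small members, and from 20 and 40 min only 1.78, 1.88 and 1.69.

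Same-numbered dishes did not deviate together (median r of -0.005 over 45 pairs, range -0.066 to 0.049, and 3 of 18 libraries correlated best with their own number). A replicate block gave 71 members higher per ERCC read and 8 higher and 26 lower in share, averaged over EU times, and moved no count by over 1.5 times.

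Depth limits the short members most, such as Mrps12, whose group means were 2.76 to 3.35 CPM.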
